A study of Mus musculus with 8 samples.

Results

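Cortex and hippocampus, neighbouring parts of the mouse forebrain, were compared directly from 1 RNA-seq library each, 2 of the 8 libraries of a series that also holds cerebellum, neuron, glia, embryonic fibroblast and embryonic stem cell libraries. Both libraries came from strain C57, the labels name no treatment, and both were made from total RNA extracted with Trizol and the Illumina TruSeq RNA kit. The age and sex of the animals, their number, and the borders of each dissection could not be taken from any label or note used here. The neuron and glia libraries, also of strain C57 and from brain, were used only as a further readout of the same genes. A gene entered the comparison when it reached 10 TPM (a transcript level corrected for length and for the total of the library) in either library, which 11059 of 29713 genes did. Of these, 10086 reached 10 TPM in both, 578 in cortex alone and 395 in hippocampus alone.

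Genes were set apart by the tissue they are known to mark, with 206 measured genes in 16 lists, of which 152 reached 10 TPM: striatum, choroid plexus, ependyma, cortical layers, hippocampal subfields, genes used by several of these, and excitatory neurons of the whole forebrain. The cortex is built of layers of excitatory neurons with their own transcription factors and channels. The hippocampus is a chain of dentate gyrus, CA3, CA2 and CA1, whose granule and pyramidal cells are equally distinct. The striatum lies beneath the cortex, and most of its neurons are inhibitory projection neurons of the direct pathway, with dopamine D1 receptors, or of the indirect pathway, with dopamine D2 receptors. The choroid plexus is an epithelium of the brain ventricles that makes cerebrospinal fluid and secretes transthyretin. In whole tissue, fewer cells of a type and less RNA per cell cannot be told apart.

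The 2 libraries were alike for most genes. On the ratio of TPM + 1, cortex over hippocampus, 94.4% of the 11059 genes lay within 2-fold, the median log2 ratio was 0.016 and the SD across genes was 0.57. At least 2-fold higher in cortex were 381 genes, 3.45% of those compared, and at least 2-fold lower 243, 2.2%, or 5.64% in either direction. At the 4-fold level 92 genes were higher (0.832%) and 50 lower (0.452%), or 1.28% in either. With 1 library on each side these are differences between libraries without a replicate check, and no test was run. Intervals given with a fold are exact 95% intervals of the ratio of counts and cover counting error only. They excluded a ratio of 1 for 87 of the 92 and 45 of the 50 genes.

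Striatal genes led the higher side and hippocampal subfield genes the lower side. Of the 92 genes 4-fold higher in cortex 21 were on the striatal lists, 3 on the choroid plexus list, 2 on the cortical layer lists and 1 on the hippocampal subfield lists. The claustrum list is counted with the cortical layer lists here and below. Of the 2 genes, Otof was a layer gene and Oprk1 a claustrum gene. Of the 50 genes 4-fold lower 8 were hippocampal subfield genes, and no striatal, choroid plexus or cortical layer gene was among them. Genes on no list made up the rest in large part. They were 22 predicted gene models and the like and 36 other genes on the higher side, and 17 and 21 on the lower side.

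**Figure D1:**
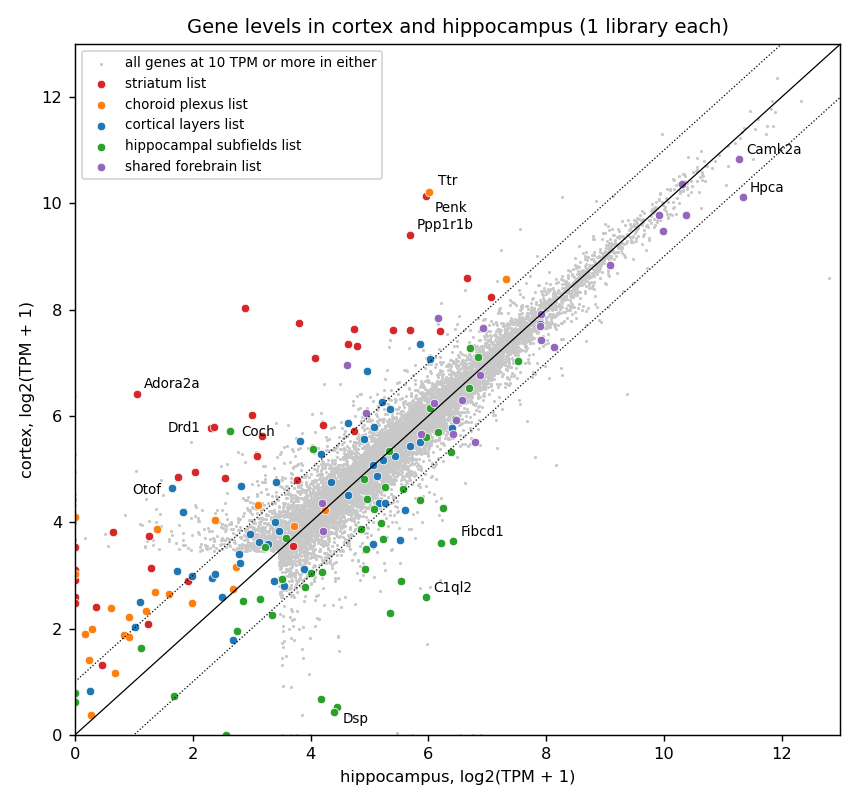
Level of each gene in cortex (vertical axis) against hippocampus (horizontal axis), both as log2(TPM + 1), with 1 library each. Grey points are the 11059 genes at 10 TPM or more in either library, coloured points all measured members of 5 groups of lists, the solid line equal levels and the dotted lines 2-fold differences. Most striatal genes lie above the upper dotted line, and hippocampal subfield genes lie mostly below the solid line.

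Striatal projection neurons carry a signalling chain that links dopamine and adenosine receptors to cyclic AMP, and the genes of this chain stood high in the library labelled cortex. Over the 4 striatal lists 38 genes were measured, and their summed level was 4867 TPM in cortex and 739 TPM in hippocampus. The median log2 ratio over all 38 was 2.50, against 0.016 over all genes compared, and 1.73 with 5 TPM added in place of 1. Of the 38, 29 reached 10 TPM, 27 were at least 2-fold higher in cortex and none lower, beside 3.45% and 2.2% of all genes. Several of the 27, among them Drd1, Drd2, Adora2a, Pdyn and Gpr6, reached 10 TPM in cortex alone. The level itself favoured the higher side for them. With no level asked, 37 of the 38 ratios were above 0 and 1 below. No count was above 0 in hippocampus for 5 of the 38, among them Sh3rf2, Ido1, Isl1 and Lhx8.

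Among genes shared by both pathways, Ppp1r1b, which encodes the dopamine-regulated phosphoprotein DARPP-32 (ENSMUSG00000061718, mm10 chromosome 11, from 98348404 to 98357796), stood at 680 TPM in cortex and 50.5 TPM in hippocampus. Its 2311 expected counts in cortex were in part fractional, as RSEM gives where it divides reads between genes, and 1700003D09Rik overlaps it on the opposite strand. Scn4b, a sodium channel beta subunit, was 16.6-fold higher (13.6 to 20.5), at 215 TPM in cortex and 12.96 TPM in hippocampus. Both genes had more than 20 counts in hippocampus.

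The signalling enzymes of the same cells were higher by smaller factors. Rgs9, which shortens dopamine receptor signals, was 8.50-fold higher (6.44 to 11.4), at 135 TPM in cortex and 15.9 TPM in hippocampus. Pde10a, the phosphodiesterase most characteristic of striatal neurons, was 5.92-fold higher (5.24 to 6.71). Adenylyl cyclase 5 (Adcy5) was 3.86-fold higher (3.52 to 4.23), at 196 TPM in cortex and 50.8 TPM in hippocampus. The G protein subunits that couple dopamine and adenosine receptors to it, Gnal and Gng7, differed least: Gnal was 2.67-fold higher (2.44 to 2.93) and Gng7 2.24-fold (2.05 to 2.45). Gnal stood at 72.3 TPM and Gng7 at 133 TPM in hippocampus, so neither gene was near absence there.

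Rasgrp2, an exchange factor for small G proteins, was 6.77-fold higher (4.85 to 9.70), Rasd2, a small GTPase also called Rhes, 4.71-fold (4.01 to 5.56) and the calmodulin-dependent phosphodiesterase gene Pde1b 3.83-fold (3.46 to 4.25). The retinoid receptor genes Rarb and Rxrg stood at 27.6 and 37.0 TPM in cortex, against 4.85 and 7.56 TPM in hippocampus. Both were thus above 4-fold on the TPM + 1 scale. Syndig1l was 9.05-fold higher (6.07 to 14.1). The homeobox gene Six3 had 70 counts in cortex and 2 in hippocampus, a ratio of 23.2 (6.17 to 195), and Six3os1 overlaps it on the opposite strand. Sh3rf2 had 116 counts in cortex and 0 in hippocampus, at least 14.2-fold higher with hippocampus set at 3 counts, but the effective lengths used for the 2 libraries were 1.89 times apart. Ido1, a tryptophan-degrading enzyme, had 24 counts in cortex and 0 in hippocampus and did not reach 10 TPM. Of the 19 measured genes of this list Strip2 alone passed the level and missed 2-fold, at 51.4 TPM in cortex and 25.7 TPM in hippocampus, and Actn2 passed narrowly at 26.7 TPM in cortex and 12.6 TPM in hippocampus.

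Direct and indirect pathway genes were both higher in cortex. Drd1, the dopamine D1 receptor (ENSMUSG00000021478, chromosome 13, from 54051183 to 54055705), had 413 counts in cortex and 21 in hippocampus, or 13.6-fold on TPM (8.78 to 22.2). Tac1, the precursor of substance P, was 7.72-fold higher (5.55 to 11.02), Pdyn, the precursor of dynorphin, 6.04-fold (4.07 to 9.27), and the muscarinic receptor gene Chrm4 3.18-fold (2.19 to 4.72). The transcription factor gene Isl1 had 29 counts in cortex and 0 in hippocampus but stayed under 10 TPM, as did Ebf1 at 3.23 TPM in cortex and 1.36 TPM in hippocampus. Eya1 did not share the pattern, with 10.7 TPM in cortex and 11.9 TPM in hippocampus, a ratio whose interval included 1.

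Among indirect pathway genes, Adora2a, an adenosine receptor that opposes dopamine signals in these neurons (ENSMUSG00000020178, chromosome 10, from 75316877 to 75334784), had 459 counts in cortex and 4 in hippocampus, 79.2-fold on TPM (30.7 to 292). Its log2 ratio of 5.37 on TPM + 1 was the highest of the striatal genes. Drd2, the dopamine D2 receptor (ENSMUSG00000032259, chromosome 9, from 49340627 to 49408177), had 171 counts in cortex and 9 in hippocampus, 13.1-fold (6.71 to 29.0). Penk, the precursor of enkephalins, reached 1134 TPM in cortex, against 60.95 TPM in hippocampus, or 18.6-fold higher (15.1 to 23.2), and A830012C17Rik overlaps it on the opposite strand. Gpr6 followed at 11.7-fold (5.19 to 32.6). Sp9 and Upb1 stayed under 10 TPM in both libraries. The folds of Drd1 and Drd2 were nearly equal and their intervals overlapped widely, and no difference between the pathways could be read from their dopamine receptors. Over all measured members, the median log2 ratio was 3.26 for the indirect list and 2.45 for the direct list. The indirect list summed to 1308.5 TPM in cortex, most of it Penk, and 71.7 TPM in hippocampus. The direct list summed to 377 TPM in cortex and 68.5 TPM in hippocampus. A difference between the pathways was not tested.

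Cholinergic neurons, the interneurons of the striatum and projection neurons of the basal forebrain, had low levels throughout. Slc5a7, the choline transporter, had 141 counts in cortex and 11 in hippocampus, 8.86-fold (4.82 to 18.2), and Ecel1, an endopeptidase-like gene, had 186 in cortex and 9 in hippocampus. Chat, which makes acetylcholine, stood at 7.81 TPM in cortex and 1.44 TPM in hippocampus, and the vesicular transporter gene Slc18a3 at 4.28 TPM in cortex and 0.28 TPM in hippocampus. Lhx8, their transcription factor, had 15 counts in cortex and 0 in hippocampus. All 6 genes of the list were thus on the same side, though only 2 reached 10 TPM.

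The start regions of Drd1, Drd2 and Rgs9 are shown because these members, both dopamine receptors and the regulator of their signals, were higher together in cortex. Each is the 250 bases before the RefSeq gene start (GRCm38.p6, the build called mm10), written 5′ to 3′ on the gene's strand. Capitals mark matches on either strand to 3 motifs, which do not overlap one another here. The GC box was searched as GGGCGG. The TATA box was searched as TATAAA. The E-box of the kind that NeuroD factors bind was searched as CAGATG.
Drd1, chr13:54055659-54055908, minus strand: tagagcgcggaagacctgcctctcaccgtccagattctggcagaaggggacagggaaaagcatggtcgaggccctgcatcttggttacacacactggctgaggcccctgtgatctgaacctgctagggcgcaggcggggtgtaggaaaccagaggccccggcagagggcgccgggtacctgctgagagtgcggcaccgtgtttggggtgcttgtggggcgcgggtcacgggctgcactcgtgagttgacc
Drd2, chr9:49340153-49340402, plus strand: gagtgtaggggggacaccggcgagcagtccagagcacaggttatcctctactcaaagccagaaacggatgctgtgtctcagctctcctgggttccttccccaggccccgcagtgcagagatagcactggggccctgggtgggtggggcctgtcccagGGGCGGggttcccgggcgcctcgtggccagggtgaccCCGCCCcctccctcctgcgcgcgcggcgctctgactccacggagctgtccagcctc
Rgs9, chr11:109298182-109298431, minus strand: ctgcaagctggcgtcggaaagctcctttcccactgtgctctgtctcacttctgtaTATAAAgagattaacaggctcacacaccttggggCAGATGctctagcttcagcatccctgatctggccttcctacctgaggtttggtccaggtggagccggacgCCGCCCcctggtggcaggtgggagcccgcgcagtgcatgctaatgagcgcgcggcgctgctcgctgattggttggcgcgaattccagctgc
Drd1 held none of the 3 motifs in this window, Drd2 held 2 GC boxes, and Rgs9 held 1 of each motif. Of 28 striatal genes with an entry, 46.4% held a GC box, 7.14% a TATA box and 17.9% the E-box. Of the 15 among them called 4-fold, 33.3% held a GC box, 13.3% a TATA box and 33.3% the E-box. Of all 27025 promoters of the same length, 32.9% held a GC box, 13% a TATA box and 14.5% the E-box. The median GC content was 62.2% for the striatal genes and 52% for all promoters.

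**Figure D2:**
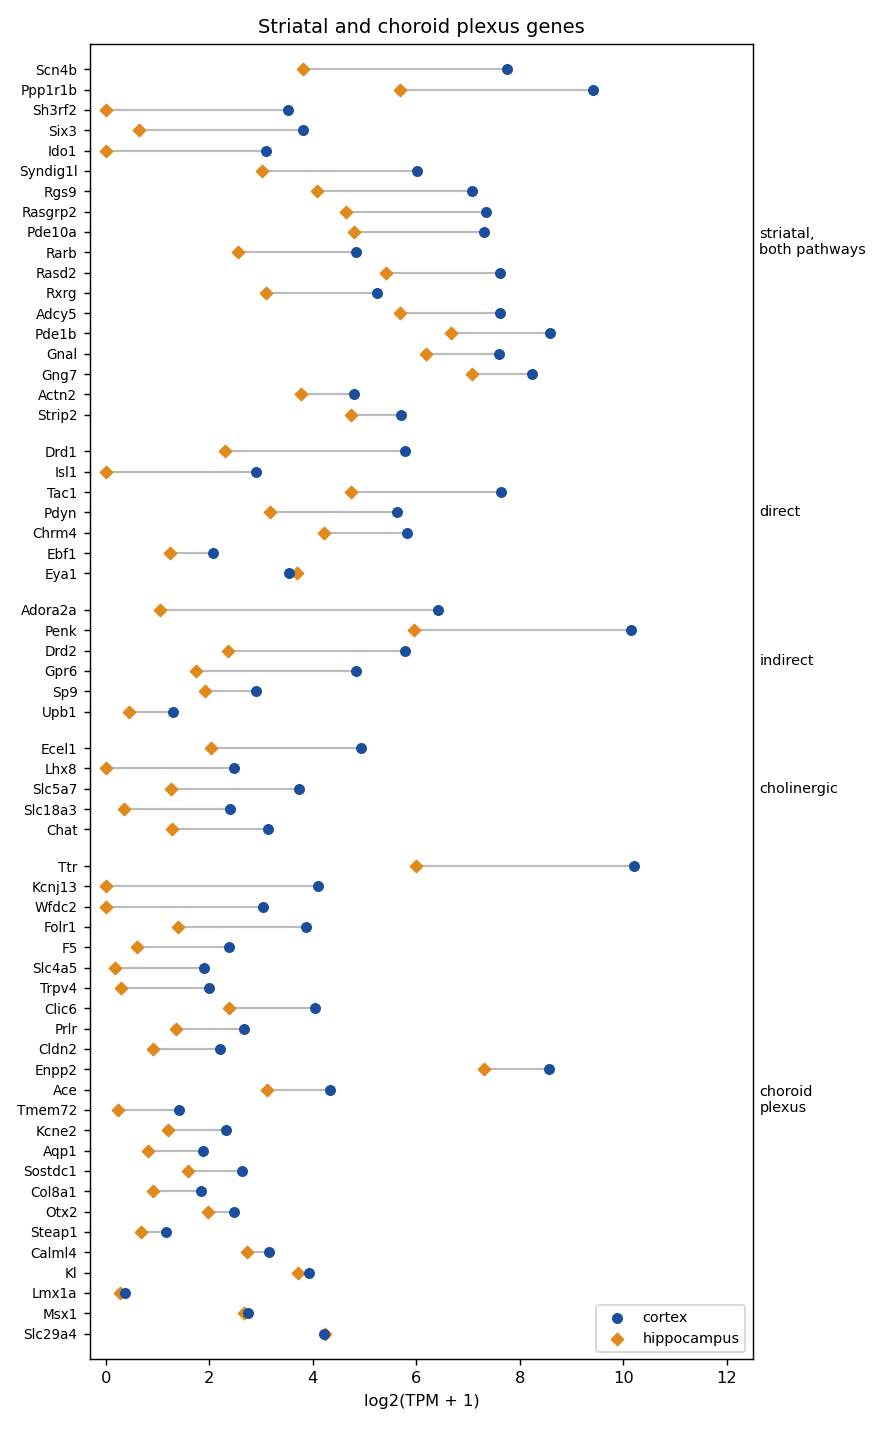
Levels of the striatal and choroid plexus genes reported here as log2(TPM + 1), 1 library each, with cortex as blue circles, hippocampus as orange diamonds and grey lines joining them. Striatal genes are to the right in cortex except Eya1, and Ttr stands apart from the other choroid plexus genes in level.

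Choroid plexus genes were higher in cortex too, but 1 gene carried most of the sum. Ttr, which encodes transthyretin (ENSMUSG00000061808, chromosome 18, from 20665280 to 20674321), stood at 1183 TPM in cortex and 63.2 TPM in hippocampus. The whole list of 24 genes summed to 1721 TPM in cortex and 288 TPM in hippocampus. Its median log2 ratio was 1.19, or 0.55 with 5 TPM added, 23 of the 24 ratios were above 0, and 8 genes reached 10 TPM. Of these 8, 6 were at least 2-fold higher and none lower, beside 3.45% and 2.2% of all genes. Folr1, Kcnj13, Clic6 and Ace, all among the 6, reached 10 TPM in cortex alone, so the level itself favoured the higher side for them.

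Enpp2, which encodes the lysophospholipase autotaxin and is also made by oligodendrocytes, stood at 380 TPM in cortex and 158 TPM in hippocampus, 2.41-fold higher (2.22 to 2.62). Clic6, a chloride channel-like gene, was 3.66-fold higher (2.35 to 5.93) and Ace, angiotensin-converting enzyme, 2.50-fold (1.80 to 3.51). The potassium channel gene Kcnj13 had 41 counts in cortex and 0 in hippocampus, at least 5.03-fold higher, with effective lengths 1.89 times apart and Gigyf2 on the opposite strand. Folr1, the folate receptor of this epithelium, rested on 21 counts in cortex and 2 in hippocampus. Neither Kcnj13 nor Folr1 was called on CPM, in which counts are divided by the depth of the library and not by length. Neither reached 10 CPM, the level asked there, so neither was called whatever its fold. Below 10 TPM, the coagulation factor gene F5 had 70 counts in cortex and 6 in hippocampus, and the bicarbonate transporter gene Slc4a5 had 29 in cortex and 1 in hippocampus. The tight junction gene Cldn2 had 24 in cortex and 4 in hippocampus, and the water channel gene Aqp1 had 15 in cortex and 3 in hippocampus. The interval of the Aqp1 ratio included 1 (0.977 to 18.6).

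Several choroid plexus genes were not separated beyond counting error. Kl, which encodes klotho, stood at 14.2 TPM in cortex and 12.1 TPM in hippocampus, and the monoamine transporter gene Slc29a4 at 17.7 TPM in cortex and 17.9 TPM in hippocampus. Slc29a4 also reached 102 TPM in the neuron library. The transcription factor genes Msx1, Otx2 and Lmx1a stood at 5.70, 4.58 and 0.29 TPM in cortex, against 5.39, 2.95 and 0.21 TPM in hippocampus. Intervals of all 5 ratios included 1. Those of Aqp1, Sostdc1, Kcne2, Wfdc2, Calml4 and Steap1, all under 10 TPM, included 1 too.

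Ependymal genes, which mark the ciliated lining of the same ventricles, did not follow the choroid plexus genes. Their summed level was 52.5 TPM in cortex and 85.0 TPM in hippocampus, and 7 of 10 ratios were below 0. Intervals of all these ratios but that of Fam183b included 1. The difference in sum lay mostly in Fam183b, with 4 counts in cortex and 15 in hippocampus, and Rarres2, with 17 and 20.4. Foxj1, the transcription factor of motile cilia, stood at 5.34 TPM in cortex and 7.48 TPM in hippocampus. Of the 2 that reached 10 TPM, Fam183b was the 1 gene called, beside 5.64% of all genes in either direction. It was 5.74-fold lower (1.83 to 23.8). It did not reach 10 CPM, so it was not called there.

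Markers of 2 further tissues were also among the higher genes. Of 12 meningeal and vascular fibroblast genes 8 reached 10 TPM, 4 were at least 2-fold higher in cortex and none lower, beside 3.45% and 2.2% of all genes, and their sum was 273 TPM in cortex and 158 TPM in hippocampus. Igf2, a growth factor made in meninges and choroid plexus, stood at 70.2 TPM in cortex and 27.6 TPM in hippocampus, and the transporter gene Slc13a4 at 14.9 TPM in cortex and 4.27 TPM in hippocampus, whereas Dcn, a matrix proteoglycan, stood at 45.6 TPM in cortex and 61.4 TPM in hippocampus. Of 10 hypothalamic genes 2 reached 10 TPM, in cortex alone, so the level itself set their direction. Both were at least 2-fold higher, beside 3.45% of all genes. With no level asked, 9 of the 10 ratios were above 0. Trh, thyrotropin-releasing hormone, had 84 counts in cortex and 2 in hippocampus. Avp, vasopressin, had 17 in cortex and 1 in hippocampus and did not reach 10 CPM, so it was not called there. Both hormones were near 0 in hippocampus, and 5 of the 10 hypothalamic genes had no count there. Thalamic genes showed no such difference, at 108 TPM in sum in cortex and 123 TPM in hippocampus with none called. The part of these tissues in the striatal and choroid plexus differences was not tested.

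Cortical layer genes differed far less than striatal genes. The 48 measured genes, of which 5 were claustrum genes, summed to 1650 TPM in cortex and 1291 TPM in hippocampus, with a median log2 ratio of 0.55. Of the 36 that reached 10 TPM, 11 were at least 2-fold higher in cortex and 3 lower, shares to be read against 3.45% and 2.2% of all genes. The 11 include 2 claustrum genes. Otof, Syt6, Sulf1 and Oprk1 of the 11 reached 10 TPM in cortex alone, so the level itself favoured the higher side for them. With no level asked, 31 of the 48 ratios were above 0 and 17 below. The range within each list was wide, from 2.99 to -1.48 on the log2 scale for layers 2 to 4. Many layer genes stood at comparable levels in the hippocampus.

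In layers 2 to 4 the highest ratio was that of Otof, which encodes otoferlin, a calcium sensor of vesicle release, at 24.0 TPM in cortex and 2.13 TPM in hippocampus, 11.2-fold (7.26 to 18.4). Lamp5, a membrane protein gene of upper-layer neurons and some interneurons, was 2.87-fold higher (2.37 to 3.50), and Rasgrf2, an exchange factor for Ras, 2.06-fold (1.84 to 2.31). The transcription factor genes Cux1 and Cux2 passed the level without passing 2-fold. Cux1 stood at 69.3 TPM in cortex and 39.6 TPM in hippocampus, and Cux2 at 46.7 TPM in cortex and 28.9 TPM in hippocampus. Rorb, a marker of layer 4, just missed the level at 9.59 TPM in cortex and 5.88 TPM in hippocampus. Mdga1, a cell adhesion gene, and Hsd11b1, a glucocorticoid-activating enzyme, ran against their list, at 10.98 and 17.8 TPM in cortex against 32.4 and 47.7 TPM in hippocampus.

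Layer 5 genes had a median of -0.18 and summed to 267 TPM in cortex and 299 TPM in hippocampus. Fezf2, which specifies subcortical projection neurons, stood at 19.6 TPM in cortex and 34.7 TPM in hippocampus, and Bcl6 at 19.6 TPM in cortex and 37.4 TPM in hippocampus. Cdh13, a cadherin gene, was the 1 called higher, 2.11-fold (1.80 to 2.49), and Tshz2 the 1 called lower, 3.87-fold (3.11 to 4.85), with fractional counts and 3 antisense neighbours. With 5 TPM added Cdh13 was under 2-fold, which left no layer 5 gene called higher.

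Layer 6 and 6b genes passed 2-fold toward cortex alone. Of 15 measured genes 11 reached 10 TPM, and the median was 0.64. Toward cortex 5 passed 2-fold and toward hippocampus none, beside 3.45% and 2.2% of all genes. Rprm, reprimo, was 3.80-fold higher (2.89 to 5.08), at 114 TPM in cortex and 30.05 TPM in hippocampus. Sulf1, a heparan sulfate sulfatase, was 4.05-fold higher (2.90 to 5.78) and Syt6, a synaptotagmin, 2.69-fold (2.03 to 3.62). Tbr1, the transcription factor of corticothalamic neurons, stood at 57.7 TPM in cortex and 23.7 TPM in hippocampus, and Ccn2, a marker of layer 6b, at 38.1 TPM in cortex and 16.99 TPM in hippocampus. Tle4 was not separated, at 32.7 TPM in cortex and 32.2 TPM in hippocampus, and Hs3st4 stood at 54.0 TPM in cortex and 83.5 TPM in hippocampus.

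Of 5 claustrum genes, Oprk1, the kappa opioid receptor, was 6.71-fold higher (3.73 to 13.3) and Gnb4, a G protein beta subunit, 3.44-fold (2.66 to 4.51). Nr4a2, Gng2 and Ntng2 were not called, and Ntng2 stood at 42.0 TPM in cortex and 50.6 TPM in hippocampus. Striatal neurons also express Oprk1, so this gene does not belong to a single compartment.

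**Figure D3:**
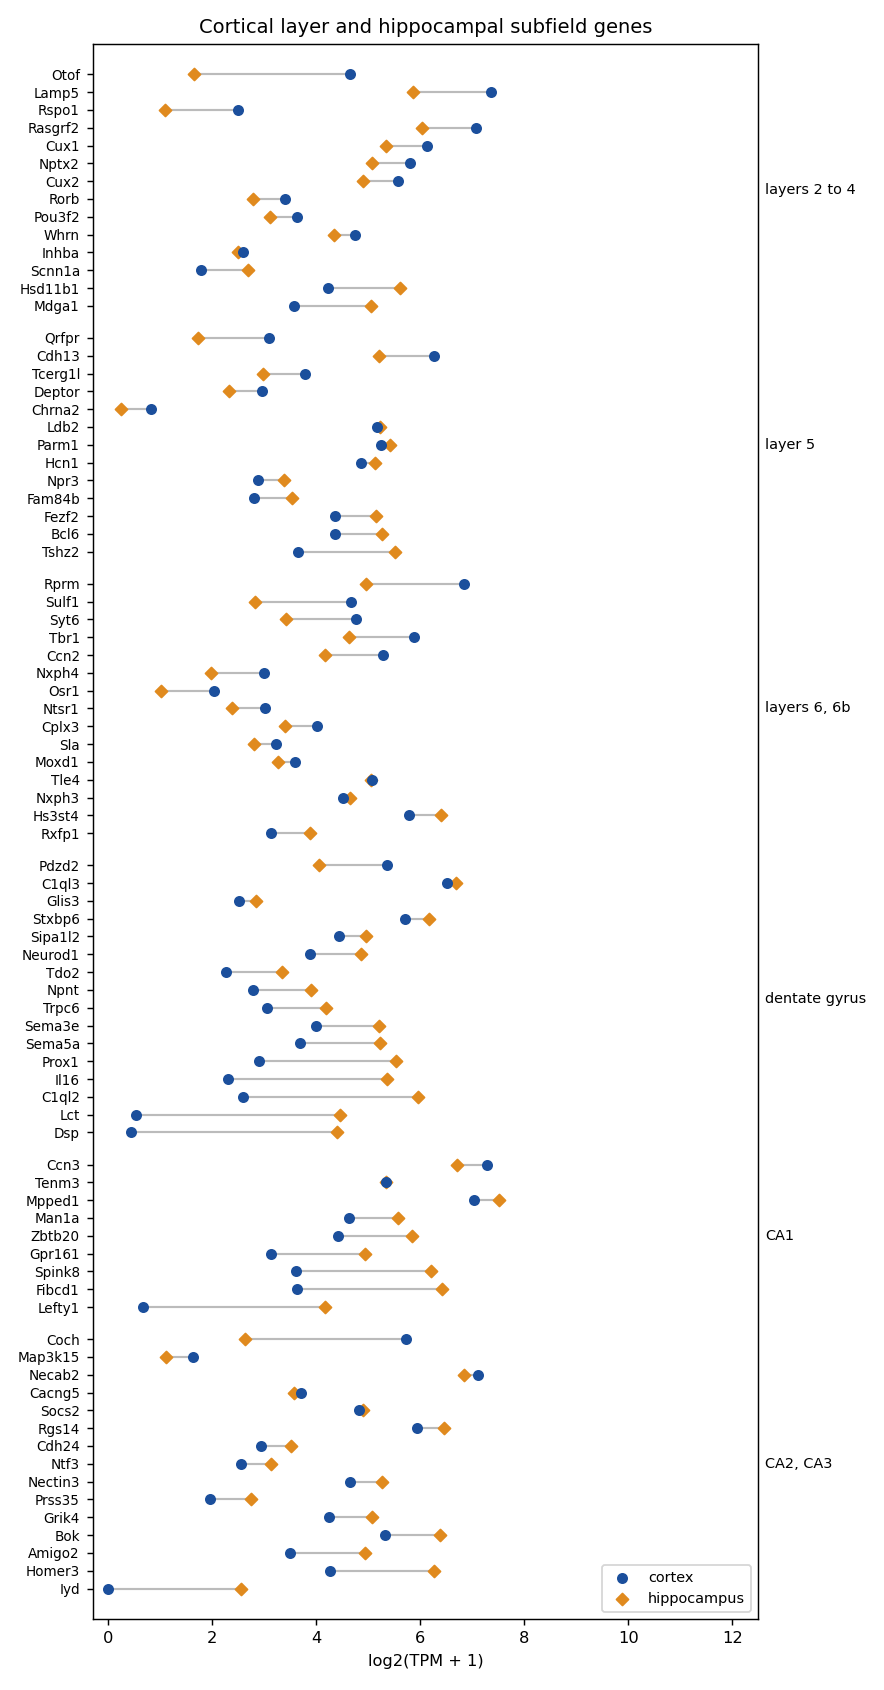
Levels of the cortical layer genes reported here (upper 3 groups) and hippocampal subfield genes (lower 3 groups) as log2(TPM + 1), 1 library each, with cortex as blue circles, hippocampus as orange diamonds and grey lines joining them. Gaps are short for most layer genes, long for Otof, and longest toward hippocampus for Dsp, Lct and Lefty1, while Coch has a long gap toward cortex.

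Hippocampal subfield genes were lower in cortex, with wide differences between genes of the same subfield. The 47 measured genes summed to 1232 TPM in cortex and 1871 TPM in hippocampus, and their median log2 ratio was -0.83. Of 38 that reached 10 TPM, 17 were at least 2-fold lower in cortex and 2 higher, beside 2.2% and 3.45% of all genes. At 4-fold 8 were lower and 1 higher, beside 0.452% and 0.832% of all genes. Of the 17, Prox1, Dsp, C1ql2, Lct, Trpc6, Il16, Npnt, Gpr161 and Lefty1 reached 10 TPM in hippocampus alone. The level itself thus favoured the lower side for them, as it favoured the higher side for Coch, which reached it in cortex alone. With no level asked, 36 of the 47 ratios were below 0 and 11 above.

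Dentate gyrus granule cell genes included 5 of the 8 subfield genes that were 4-fold lower. Dsp, desmoplakin, a protein of cell junctions (ENSMUSG00000054889, chromosome 13, from 38151294 to 38198577), had 6 counts in cortex and 270 in hippocampus, 57.3-fold lower on TPM (26.3 to 159). Lct, which encodes the enzyme lactase (ENSMUSG00000026354, chromosome 1, from 128284756 to 128328318), had 6 counts in cortex and 199 in hippocampus, 47.5-fold lower (21.6 to 132). C1ql2, a secreted synaptic protein of mossy fibres, was 12.2-fold lower (7.76 to 20.3), at 5.01 TPM in cortex and 61.3 TPM in hippocampus. Prox1, the transcription factor that sets granule cell identity, was 7.06-fold lower (5.73 to 8.77), at 6.44 TPM in cortex and 45.4 TPM in hippocampus. Its antisense RNA Prox1os had 3 counts in cortex and 22 in hippocampus, and without a known strand setting the reads of the pair cannot be told apart. Il16 was 10.2-fold lower (6.63 to 16.1), with fractional counts and 2 antisense neighbours.

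The remaining dentate genes were closer. Sema5a and Sema3e, guidance molecules, were 3.06-fold (2.66 to 3.53) and 2.40-fold (2.02 to 2.84) lower, Trpc6, a cation channel, 2.35-fold (1.62 to 3.44) and Npnt, a matrix protein, 2.36-fold (1.69 to 3.31). Neurod1 stood just short of 2-fold on TPM + 1, at 13.7 TPM in cortex and 27.9 TPM in hippocampus. C1ql3, a relative of C1ql2, did not differ by more than counting error, at 90.7 TPM in cortex and 103 TPM in hippocampus. Pdzd2 ran the other way, 2.60-fold higher in cortex (2.21 to 3.08), with fractional counts and a same-strand neighbour. On CPM it fell short of 2-fold and was not called.

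In CA1, Fibcd1, a receptor of acetylated sugars (ENSMUSG00000026841, chromosome 2, from 31813290 to 31846005), had 120 counts in cortex and 616 in hippocampus, 7.41-fold lower (6.08 to 9.09). Spink8, a protease inhibitor gene, was 6.52-fold lower (3.53 to 12.999), at 11.2 TPM in cortex and 72.9 TPM in hippocampus. Lefty1, a signal of the transforming growth factor family, had 2 counts in cortex and 38 in hippocampus, 28.4-fold lower (7.33 to 243). Gpr161, a receptor of primary cilia, was 3.82-fold lower (3.08 to 4.77), and Zbtb20, a transcription factor needed for CA1 identity, 2.77-fold (2.55 to 3.004). Ccn3 and Tenm3 were not lower: Ccn3 stood at 155 TPM in cortex and 104 TPM in hippocampus, and Tenm3 at 39.6 TPM in cortex and 39.4 TPM in hippocampus. CA1 genes thus ran from genes near 0 in cortex to genes as abundant there.

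CA2 and CA3 genes had a median of -0.58, against -1.12 for dentate gyrus and -1.43 for CA1. Homer3, a scaffold of glutamate receptors, was 4.14-fold lower (3.09 to 5.65), with fractional counts, Amigo2, a CA2 and CA3 adhesion gene, 2.87-fold (2.11 to 3.94) and Bok 2.12-fold (1.66 to 2.71). The kainate receptor gene Grik4 stood at 18.0 TPM in cortex and 32.8 TPM in hippocampus and Rgs14, a CA2 signalling protein gene, at 60.7 TPM in cortex and 86.8 TPM in hippocampus, both short of 2-fold. Coch, which encodes cochlin, ran against the list at 51.7 TPM in cortex and 5.19 TPM in hippocampus, 9.96-fold higher (6.26 to 16.8). Iyd had 0 counts in cortex but stayed under 10 TPM in hippocampus, at 4.89. Of mossy and Cajal-Retzius cell genes none was called, with Calb2 at 47.4 TPM in cortex and 61.5 TPM in hippocampus and Reln, the secreted glycoprotein reelin, at 69.9 TPM in cortex and 64.3 TPM in hippocampus.

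The start regions of 2 subfield genes, 1 of dentate gyrus and 1 of CA1, are shown for comparison with the striatal ones, in the same window and with the same motifs in capitals.
Dsp, chr13:38151044-38151293, plus strand: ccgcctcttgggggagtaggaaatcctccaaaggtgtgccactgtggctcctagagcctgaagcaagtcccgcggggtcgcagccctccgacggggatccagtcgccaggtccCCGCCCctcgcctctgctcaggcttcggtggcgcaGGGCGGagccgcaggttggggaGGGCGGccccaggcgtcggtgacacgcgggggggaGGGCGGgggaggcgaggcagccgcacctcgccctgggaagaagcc
Fibcd1, chr2:31846006-31846255, minus strand: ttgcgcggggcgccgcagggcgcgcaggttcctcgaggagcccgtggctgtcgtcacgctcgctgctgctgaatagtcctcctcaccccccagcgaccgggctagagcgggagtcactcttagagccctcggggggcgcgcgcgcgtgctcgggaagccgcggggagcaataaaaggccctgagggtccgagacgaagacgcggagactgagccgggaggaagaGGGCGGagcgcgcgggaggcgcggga
Dsp held 4 GC boxes and Fibcd1 1, and neither held the TATA box or the E-box as written. Of 38 subfield genes with an entry, 68.4% held a GC box, 7.89% a TATA box and 13.2% the E-box, with a median GC content of 65.8%. For 29 cortical layer genes the shares were 51.7%, 6.9% and 10.3%, with a median GC content of 62.8%. For 17 shared forebrain genes they were 76.5%, 11.8% and 17.6%, and for 19 choroid plexus genes 73.7%, 31.6% and 10.5%. A high share of GC boxes was thus not particular to subfield genes.

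Genes that several forebrain compartments use went both ways. Foxp2, a transcription factor of striatal neurons and of layer 6, had 14.5 TPM in cortex and 1.19 TPM in hippocampus, 12.2-fold higher (6.07 to 28.6). Meis2, a homeobox gene of the striatum, and Pcp4, a calmodulin regulator of striatal, layer 5 and CA2 neurons, stood at 154 and 1106 TPM in cortex, against 49.7 and 309 TPM in hippocampus. Neurod6, a factor of pyramidal neurons, was 6.13-fold lower (5.17 to 7.31), at 36.5 TPM in cortex and 224 TPM in hippocampus. Pou3f1 was 3.996-fold lower (3.10 to 5.18) and Grp, gastrin-releasing peptide, 3.17-fold (1.93 to 5.34). Bcl11b, which marks striatum, layer 5 and CA1 alike, did not differ by more than counting error, at 51.7 TPM in cortex and 55.3 TPM in hippocampus. All 15 genes reached 10 TPM, and 3 were 2-fold higher and 3 lower, beside 3.45% and 2.2% of all genes. The striatal genes that accompany Foxp2, Meis2 and Pcp4 in cortex were given above, and their part in these 3 differences was not tested.

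Excitatory neuron genes of the whole forebrain were abundant in both libraries. All 24 reached 10 TPM, their median log2 ratio was -0.24 and their sum was 9047 TPM in cortex and 12081 TPM in hippocampus. Emx1, a transcription factor of the dorsal forebrain, stood at 19.7 TPM in cortex and 17.4 TPM in hippocampus and the vesicular glutamate transporter gene Slc17a7 at 883 TPM in cortex and 961 TPM in hippocampus. Camk2a, the postsynaptic kinase, stood at 1822 TPM in cortex and 2477 TPM in hippocampus, and Nrgn, neurogranin, at 1309 TPM in cortex and 1268 TPM in hippocampus. Forebrain markers were thus present in both libraries, as labelled.

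Within that list of 24, 3 genes were at least 2-fold higher and 2 lower, beside 3.45% and 2.2% of all genes. Hpca, the calcium sensor hippocalcin, was 2.34-fold lower (2.24 to 2.46), at 1107 TPM in cortex and 2596 TPM in hippocampus, and Neurod2 2.47-fold lower (2.14 to 2.86). Cpne5, copine 5, was 5.22-fold higher (4.11 to 6.69), with fractional counts, Mef2c, an activity-dependent transcription factor, 3.24-fold (2.98 to 3.53), and the potassium channel gene Kcnv1 2.20-fold (1.87 to 2.58). Mef2c stood at 228 TPM in cortex and 70.5 TPM in hippocampus.

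**Figure D4:**
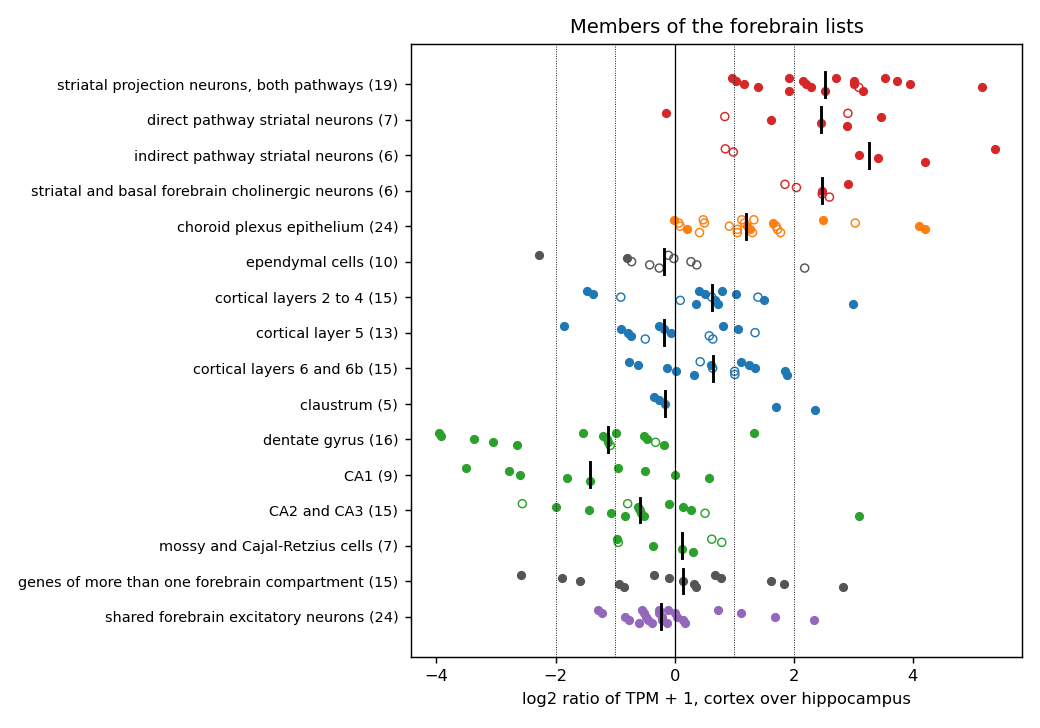
Log2 ratio of TPM + 1, cortex over hippocampus, for every measured member of the 16 forebrain lists, with the number measured in brackets. Filled points reached 10 TPM in either library and open points did not, black bars are medians over all members, and dotted lines mark 2-fold and 4-fold. The striatal medians lie between 2.45 and 3.26, the choroid plexus median at 1.19, and the dentate gyrus and CA1 medians at -1.12 and -1.43.

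Over all lists of other cell types and tissues, those of meninges and hypothalamus included, 109 genes reached 10 TPM, of which 10 were at least 2-fold higher in cortex and 3 lower, beside 3.45% and 2.2% of all genes. Of 12 pan-neuronal genes none passed 2-fold, and Snap25, a synaptic fusion protein, stood at 2748 TPM in cortex and 2634 TPM in hippocampus. Of 18 GABAergic genes 15 reached 10 TPM, 3 were at least 2-fold higher in cortex and none lower, beside 3.45% and 2.2% of all genes, and Gad1, which makes GABA, stood at 369 TPM in cortex and 292 TPM in hippocampus. The higher ones included the homeobox genes Dlx5 and Dlx6, which the developing striatum also expresses. Dlx5 had 33 counts in cortex and 4 in hippocampus and did not reach 10 CPM, so it was not called there. Dlx6 stood at 26.1 TPM in cortex and 7.99 TPM in hippocampus, and antisense RNAs overlap it. Slc32a1, the vesicular GABA transporter, was the third, at 134 TPM in cortex and 61.6 TPM in hippocampus. Somatostatin (Sst) stood at 816 TPM in cortex and 738 TPM in hippocampus.

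Of the glial lists, oligodendrocyte genes leaned toward the hippocampus, and the medians of the others were near 0. Gfap, the astrocyte filament, stood at 169 TPM in cortex and 408 TPM in hippocampus. It was the 1 astrocyte gene of 14 to pass 2-fold, beside 5.64% of all genes, and the median of the astrocyte list was -0.058. Oligodendrocyte genes had a median of -0.42, with 16 of 17 ratios below 0, and Mbp, a myelin protein, stood at 2543 TPM in cortex and 3391 TPM in hippocampus. St18 was 5.32-fold lower (3.84 to 7.53) and Opalin 2.20-fold (1.59 to 3.07), whereas Klk6 had 25 counts in cortex and 2 in hippocampus. Klk6 did not reach 10 CPM, so it was not called there. Oligodendrocyte precursor genes had a median of -0.017, 5 of 10 ratios above 0 and none called. Microglial and endothelial genes had medians of 0.10 and 0.41 with none called. Of 5 blood genes none was called, at 1298 TPM in sum in cortex and 1147 TPM in hippocampus.

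Receptor genes gave differences beyond the tissue markers, and several neurotransmitter systems had genes on both sides. The members of the glutamate, GABA-A, serotonin, muscarinic and adrenergic receptor lists past 2-fold are given here, which goes beyond the rule for named genes and was decided after their values were seen. Gria1, an AMPA receptor subunit, stood at 224 TPM in cortex and 478 TPM in hippocampus, 2.14-fold lower (2.04 to 2.25), while Gria2, Gria3 and Gria4 stayed within 2-fold. Grin2a, an NMDA receptor subunit, was 2.24-fold lower (1.91 to 2.62), whereas Grin1 and Grin2b stood at 302 and 97.4 TPM in cortex, against 315 and 92.9 TPM in hippocampus. Among metabotropic glutamate receptors Grm2 was 2.72-fold lower (2.14 to 3.47) and Grm8 2.52-fold higher (1.65 to 3.95). All 21 glutamate receptor genes reached 10 TPM, and 4 were called 2-fold in either direction, beside 5.64% of all genes. Grm8 was under 2-fold with 5 TPM added.

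For GABA-A receptors, which are pentamers of mixed subunits, Gabra5, the subunit of extrasynaptic receptors on hippocampal pyramidal cells, stood at 59.3 TPM in cortex and 203 TPM in hippocampus, 3.43-fold lower (3.02 to 3.91). Another gene overlaps Gabra5 on the opposite strand. Gabrd, the delta subunit, was 2.99-fold higher (2.35 to 3.85) and Gabra3 2.29-fold higher (2.005 to 2.61).

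Among serotonin and adrenergic receptors the higher genes were Htr2c at 63.1 TPM in cortex and 26.1 TPM in hippocampus, Htr2a at 17.9 TPM in cortex and 8.12 TPM in hippocampus, Htr1b at 14.1 TPM in cortex and 5.98 TPM in hippocampus and Adra1b at 12.53 TPM in cortex and 2.12 TPM in hippocampus. Htr2c and Htr1b are also known in choroid plexus and striatal neurons, and the part of those cells was not tested. The lower genes were Htr1a, Adra1d and Htr5b. Htr1a stood at 8.39 TPM in cortex and 18.2 TPM in hippocampus, and Adra1d at 15.1 TPM in cortex and 58.3 TPM in hippocampus. Htr5b had 6 counts in cortex and 29 in hippocampus and did not reach 10 CPM, so it was not called there. Nr3c2, the mineralocorticoid receptor that hippocampal neurons carry, was 3.79-fold lower (3.33 to 4.32), at 25.8 TPM in cortex and 97.8 TPM in hippocampus, while the glucocorticoid receptor gene Nr3c1 stood at 50.2 TPM in cortex and 44.7 TPM in hippocampus. Crh, corticotropin-releasing hormone, had 40 counts in cortex and 6 in hippocampus and did not reach 10 CPM, so it was not called there. Bdnf stood at 18.5 TPM in cortex and 33.3 TPM in hippocampus, short of 2-fold. All 13 immediate early genes had ratios above 0, with Dusp1 alone past 2-fold, beside 3.45% of all genes.

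**Figure D5:**
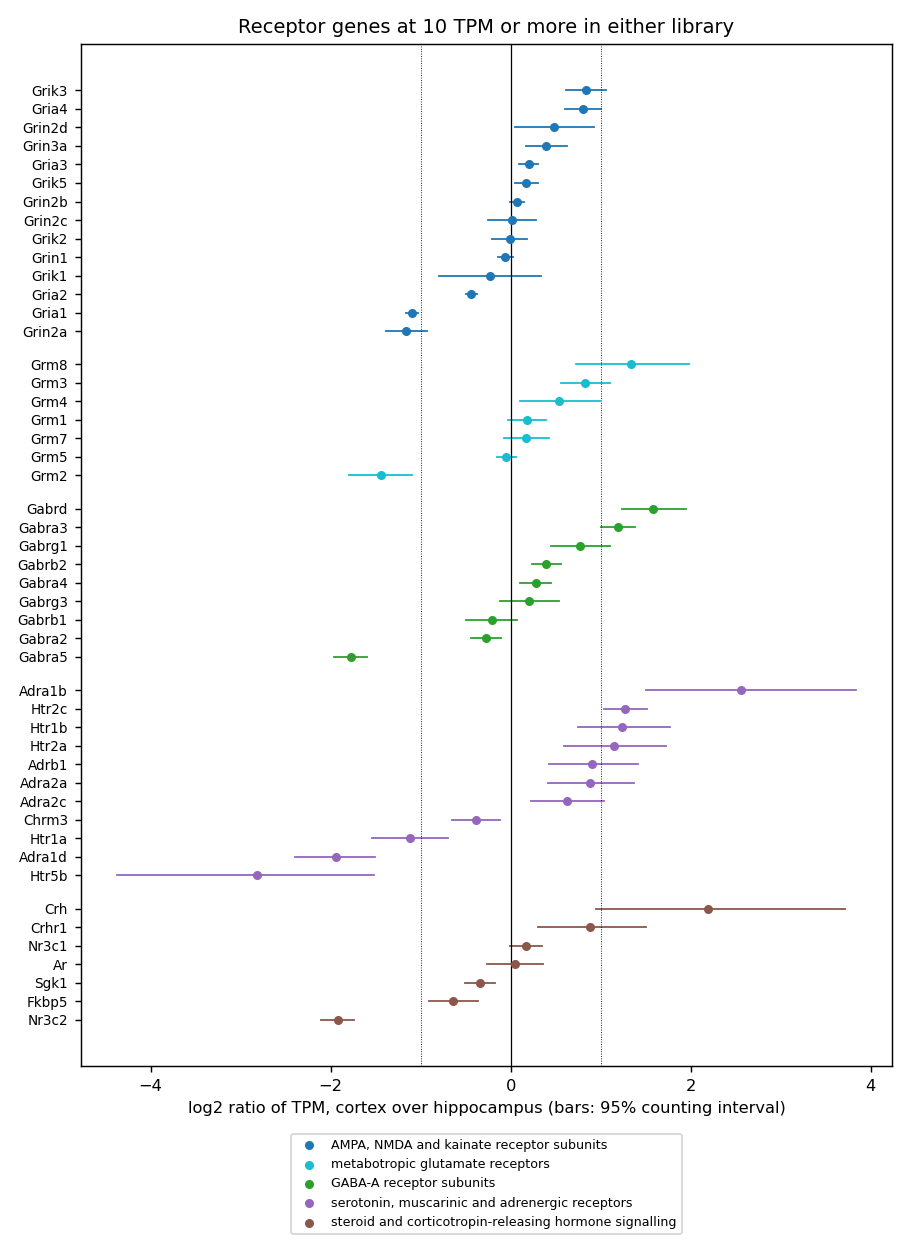
Log2 ratio of TPM, cortex over hippocampus, for the receptor and hormone signalling genes reported here at 10 TPM or more in either library, with bars for the exact 95% interval of the count ratio (counting error only) and dotted lines at 2-fold. Gabra5, Nr3c2, Adra1d, Grm2, Gria1 and Grin2a lie to the left, and Gabrd, Gabra3, Htr2c and Adra1b to the right.

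Of the 15 leading genes on the higher side 8 were striatal, 2 were choroid plexus genes and 1, Trh, was hypothalamic, as given above. The other 4 were on no list. Cd4, a T cell coreceptor that myeloid cells also carry, had 82 counts in cortex and 0 in hippocampus, at least 12.2-fold higher, and Atp6ap1l had 61 counts in cortex and 0 in hippocampus, at least 8.85-fold, both with effective lengths over 1.5 times apart. Serpina9, a serpin gene that Gm28577 overlaps on the same strand, had 61 counts in cortex and 0 in hippocampus, at least 18.4-fold. Rasgef1c, a Ras exchange factor, had 212 counts in cortex and 9 in hippocampus, 15.3-fold (7.92 to 34.0). Of the 5 most abundant other genes past 4-fold, chosen after their values were seen, Camk2d stood at 171 TPM in cortex and 39.9 TPM in hippocampus, Vat1l at 96.4 TPM in cortex and 17.7 TPM in hippocampus, Gucy1a1, a guanylyl cyclase subunit, at 96.3 TPM in cortex and 21.7 TPM in hippocampus, Plxnd1, a semaphorin receptor, at 64.4 TPM in cortex and 15.3 TPM in hippocampus, and Pde7b, a phosphodiesterase, at 57.7 TPM in cortex and 9.70 TPM in hippocampus.

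On the lower side 7 of the 15 leading genes were subfield genes. Cabp7, a calcium-binding protein gene, stood at 32.7 TPM in cortex and 288 TPM in hippocampus, with Zmat5 on the opposite strand, and Rasd1, a small GTPase induced by dexamethasone, at 5.75 TPM in cortex and 57.3 TPM in hippocampus. Tspan18 was 8.11-fold lower (5.12 to 13.8) and Vwa3b rested on 2 counts in cortex and 18 in hippocampus. Rsc1a1 overlaps Ddi2 on the same strand with fractional counts and is uncertain. Among further genes past 4-fold, also chosen after their values were seen, Tanc1, a synaptic scaffold, stood at 16.6 TPM in cortex and 71.3 TPM in hippocampus, Iqgap2 at 12.1 TPM in cortex and 53.7 TPM in hippocampus, Tgfb2 at 7.60 TPM in cortex and 37.4 TPM in hippocampus, and Pkp2, a partner of desmoplakin in cell junctions, at 6.83 TPM in cortex and 32.8 TPM in hippocampus. The effective lengths of Tgfb2 were 1.55 times apart, on 86 counts in cortex and 190 in hippocampus.

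Lars2, a mitochondrial leucyl-tRNA synthetase, was also among them, at 84.3 TPM in cortex and 665 TPM in hippocampus. The gene model Gm42418, which RefSeq lists as a synonym of the ribosomal RNA-related pseudogene Rn18s-rs5, stood at 386 TPM in cortex and 7159 TPM in hippocampus, or 0.0273% of counts in cortex and 0.509% in hippocampus. It was singled out after its values were seen, and its part in other differences was not tested. Ribosomal protein genes took 5.25% of TPM in cortex and 5.35% in hippocampus. Total expected counts were 5369399 in cortex and 3686772 in hippocampus, at which 3 counts on a transcript of 2000 bases are worth 0.656 TPM in cortex and 0.943 TPM in hippocampus. The Y-linked gene Ddx3y stood at 40.9 TPM in cortex and 39.4 TPM in hippocampus, and at 5.78 TPM in neuron and 42.2 TPM in glia. The X-linked gene Xist stood at 0.92 TPM in cortex and 0.15 TPM in hippocampus, and at 503 TPM in neuron and 0.13 TPM in glia. The neuron library thus differed from the other libraries compared here in both genes.

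The neuron and glia libraries gave a readout of the same genes that the cortex and hippocampus values did not enter. Of the 11059 genes 64.0% reached 10 TPM in neuron and 79.6% in glia. Of the 92 genes 4-fold higher in cortex 29.3% reached it in neuron and 20.7% in glia, and of the 50 lower genes 20% in neuron and 32% in glia. These shares are descriptions of 1 neuron and 1 glia library.

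By compartment, 15 of 38 striatal genes reached 10 TPM in neuron and 3 in glia. Ppp1r1b stood at 99.8 TPM in neuron and 2.66 TPM in glia and Penk at 64.3 TPM in neuron and 6.45 TPM in glia. Drd1 and Drd2 stood at 4.04 and 0.93 TPM in neuron, against 0 and 0.52 TPM in glia. Of the 24 choroid plexus genes 2 reached 10 TPM in neuron and 3 in glia, and Ttr stood at 2.45 TPM in neuron and 4.13 TPM in glia. Of the 47 subfield genes 7 reached it in neuron and 16 in glia, and Prox1 stood at 0.51 TPM in neuron and 3.01 TPM in glia. Of the 24 shared forebrain genes 23 reached it in neuron and 5 in glia.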

How the data were processed

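Libraries were prepared from 1 ug of total RNA, per the labels' protocols. Bowtie, RSEM and the build mm10 are named without versions in the submitters' processing notes. The strand setting and annotation release were in no source used here. The deposited tables hold expected counts for each gene, which are RSEM estimates and need not be whole. Per the file headers they also give TPM and effective lengths, which RSEM uses to scale TPM. Of the expected counts above 0, 78.2% were whole in cortex and 81.7% in hippocampus, to within 0.005.

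A gene was compared when it had 10 TPM or more in either library and was called when TPM with 1 added differed at least 2-fold or 4-fold. Fold values use TPM with nothing added, and their exact 95% intervals (Clopper-Pearson) rest on expected counts. A library at 0 counts was set at 3 counts. Each group held 1 library, so no test was run. Lists were summarised over all measured members by their counts and median. Of 438 listed symbols 435 were measured, and 1 of the others was an older symbol of a measured gene. Named genes are the 15 per direction with the largest ratio and at least 20 counts in both libraries together, leaving out gene models, ribosomal, histone, small RNA and mitochondrial genes, then every member of the 16 forebrain lists, and up to 4 members of each other list by ratio and level. The members, lists and rules were chosen with earlier results of these data known.

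Gene coordinates and overlaps are from GENCODE M21 by gene identifier, and promoters from RefSeq. Alternatives were another added value, another floor, counts scaled to library totals with no length term (CPM), TMM factors, cortex counts thinned to the hippocampus total, an interval excluding 1, and TPM rescaled without striatal, choroid plexus and blood genes. With CPM the floor of 10 was applied to the CPM values, so a gene could lose its call by level or by fold. Intervals and the calling rule were tested on simulated data. TMM factors came from edgeR 4.0.16 under R 4.3.3. All else ran under Python 3.11.15, using scipy 1.17.1, pandas 2.3.3 and numpy 2.4.6, with plots by matplotlib 3.10.9. The other 4 libraries were not used here. Some genes that the rules would name are not reported here, in text or in labelled plots, though they remain in counts, sums and medians.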

Additional observations from a re-analysis of the deposited data

How the results depend on the processing

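No paired analysis was possible because each group held 1 library, and for the same reason no replicate could be left out. Of 195 alternative values, 180 were labelled the same and 15 moved. A count moved if it changed by more than 1.5 times. The median of a list moved if it changed by more than the typical half-width of its members' counting intervals. A reversal was defined only for list medians of at least 1 in absolute log2 ratio. Those were the striatal and choroid plexus medians, and neither changed sign. With 5 TPM added in place of 1, there were 248 genes 2-fold higher in cortex, 38 genes 4-fold higher and 21 lower, the striatal median was 1.73 and the choroid plexus median 0.55, the 4-fold higher cortical layer genes fell to 1 and those of several compartments to 0. With CPM there were 33 genes 4-fold lower and 1 hippocampal subfield gene 2-fold higher. A floor of 1 TPM gave 1213 genes 2-fold higher and 787 lower, and 209 genes 4-fold higher and 125 lower. A floor of 20 TPM gave 220 genes 2-fold higher and 46 genes 4-fold higher. With 0.1 TPM added the 4-fold counts were 105 higher and 66 lower, the striatal median 3.001 and the choroid plexus median 1.61. TMM factors and thinned counts kept every count and median within these bounds, as rescaled TPM did for the counts over all genes, the only values it was run on with their median. Requiring an interval that excludes 1 moved the median of all genes to 0.19 and no count over all genes. Of 435 listed genes 109 were called 2-fold. Under the 5 alternatives run on lists, 25 of these lost the call in at least 1, 11 others gained it, and 0 changed direction. Among genes named here, Ccn2, Ace, Rasgrf2, Cdh13, Bok, Trpc6, Npnt, Opalin, Actn2, Dusp1, Grm8, Htr1a, Htr1b and Htr2a were under 2-fold with 5 TPM added, and Folr1, Kcnj13, Rasgrf2, Fam183b, Pdzd2, Dlx5, Avp, Klk6, Crh, Htr5b and Dusp1 were not called with CPM. Of the latter, Folr1, Kcnj13, Fam183b, Dlx5, Avp, Klk6, Crh and Htr5b did not reach 10 CPM, so they lost the call by level. Rasgrf2 and Pdzd2 reached it and fell short of 2-fold. Sh3rf2, Lefty1, Rsc1a1, Prox1os, Vwa3b and Tspan18 were under 4-fold with 5 TPM added. With CPM, Kcnj13, Rsc1a1, Prox1os and Vwa3b were not called 4-fold. They did not reach the floor applied to CPM values in either library, so they lost the call by level, whatever their fold. Of the genes called 4-fold, 17 higher and 11 lower rested on fewer than 20 counts in both libraries together. The lower depth of hippocampus limits what can be said of genes at 0 counts there.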
